A study of Mus musculus with 16 samples.

Results

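The AIM2-like receptor genes of the mouse were followed in RNA sequencing of cultured monocytes. The 6 genes described here, Aim2, Ifi203, Ifi204, Ifi205, Ifi209 and Mndal, were taken by symbol from the deposited expression table, and 6 of 6 were among its 13085 genes. By the study's methods, monocytes were enriched from bone marrow, whereas the cell type label reads PBL Monocyte. The donors were C57BL/6 mice that were NFAM1+/+ or NFAM1-/-, the latter made by Cas9 deletion of exons 2 and 3 of Nfam1, a cell surface receptor gene of myeloid cells. They were left without stimulus, or pretreated with IFN-γ and then given MegaCD40L, a multimeric form of the CD40 ligand, for 6 h or 24 h. The 8 combinations of genotype, stimulus and time held 2 libraries each, 16 in all. The labels and the methods give different doses of IFN-γ, so no dose is given. For its sequencing the study names monocytes of 4 NFAM1+/+ and 6 NFAM1-/- mice. No label assigns libraries to mice or says whether the 2 libraries of a group came from separate mice. The p-values therefore measure the spread between libraries, which may be technical. For 4 of the 8 libraries at 24 h, title and tag name different genotypes, and groups follow the title.

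AIM2-like receptors, also called PYHIN or HIN-200 proteins, join an N-terminal pyrin domain to 1 or more HIN domains, which bind double-stranded DNA. AIM2 senses DNA in the cytosol and nucleates an inflammasome through the adaptor ASC, which activates caspase-1 and leads to release of IL-1β and IL-18 and to pyroptosis, whereas IFI204 and its relatives act mainly in the nucleus and in interferon and cell cycle control. The genes lie side by side on chromosome 1 and are known as interferon-inducible in macrophages, where type I interferon and IFN-γ act in part through interferon regulatory factors on interferon-stimulated response elements (ISRE).

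In GENCODE vM21 on GRCm38 the 13 family genes listed in the table span chr1:173350879-174031810, a stretch of 681 kb. Aim2 stands at one end, on the plus strand at chr1:173350879-173466040, and Ifi205 at the other, on the minus strand at chr1:174011998-174031810. Between them lie Ifi209 at chr1:173630917-173647928, Ifi204 at chr1:173747293-173766943, Mndal at chr1:173849126-173942491 and Ifi203 at chr1:173920407-173942672, together with the 7 other listed family genes Ifi206, Ifi207, Ifi208, Ifi211, Ifi213, Ifi214 and the pseudogene Ifi203-ps. The symbols Ifi202b, Mnda, Pydc3, Pydc4, Pydc5 and Pyhin1 were also looked up and had no row. Whether any of them is another name of a listed gene was not checked. The submitters' notes name GRCm39, so these positions are of another build than the one they name, and the table itself holds no coordinates.

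Because the family arose by duplication, reads can be shared between its genes. Of all windows of the read length, 101 bases, along the annotated transcripts, the share that is found exactly in another annotated gene was 0% for Aim2, 2.79% for Ifi203, 6.25% for Mndal, 10.6% for Ifi204, 14.99% for Ifi205 and 16.6% for Ifi209. Aim2 and Ifi203 were thus nearly free of such windows, and Ifi205, Ifi209 and Ifi204 shared most of theirs with Ifi211, Ifi214 and Ifi211. Mndal also overlaps Ifi203 by 37 exonic bases on the same strand. How the authors' counting split shared reads is not given in the sources used here, so values of Ifi204, Ifi205, Ifi209 and Mndal carry that uncertainty.

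Promoter stretches that hold the ISRE are shown first, and their part in the response to the stimulus was not tested. RefSeq promoters of GRCm38.p6, running from 250 bases before to 50 bases after a start site, were searched on both strands for the ISRE core TTTCNNTTTC, which reads GAAANNGAAA on the other strand. It was found in 9 of the 11 family genes with an entry, and in 3 of 5 members with one, against 3.99% of all 27025 genes. Because the family arose by duplication, its promoters are not separate cases in these counts. Ifi204 had no entry. Each line below gives 60 bases 5′ to 3′ along the gene's strand, with the core, or the window closest to it, in capitals. The Ifi203 and Mndal lines are on the minus strand at chr1:173942488-173942547 and chr1:173880184-173880243 and hold the same bases, the Ifi205 line is on the minus strand at chr1:174031850-174031909, and the Ifi206 line, from the relative with the highest stimulus effect at 6 h, is on the minus strand at chr1:173491319-173491378. Ifi209 at chr1:173630760-173630819 and Aim2 at chr1:173420533-173420592, both on the plus strand, hold no match.
Ifi203: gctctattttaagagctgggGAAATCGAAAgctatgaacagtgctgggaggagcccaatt
Mndal: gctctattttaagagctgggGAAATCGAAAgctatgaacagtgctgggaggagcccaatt
Ifi205: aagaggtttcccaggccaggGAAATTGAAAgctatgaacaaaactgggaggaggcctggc
Ifi206: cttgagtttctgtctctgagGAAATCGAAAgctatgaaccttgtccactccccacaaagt
Ifi209: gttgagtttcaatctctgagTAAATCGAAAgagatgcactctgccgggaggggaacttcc
Aim2: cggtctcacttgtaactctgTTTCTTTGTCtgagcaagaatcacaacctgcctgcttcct

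The core form GAAATCGAAA was picked because it is the most frequent in the family. It stood in 7 family genes and in 16 of the 27025 genes, those 7 included. In Ifi209 the same place holds a window that differs from this form by 1 substitution, G1T, counted from 1 at the first base of the core and with the core's base first. Aim2's closest window, on the other strand, differs from that form at 3 positions but, like that of Ifi209, from the searched core at only 1 letter, since the core leaves its middle letters free. Windows no more than 1 letter off the searched core were in 38.9% of all genes. The matches began 35 bases before 1 of the annotated start sites in Ifi203, the other having none, 36 and, from a second annotated start, 54 in Mndal, and 134 before and 23 after it in Ifi205. Of other elements, the IFN-γ-activated site GAS, TTCNNNGAA, was in 0 of the 11 family genes against 9.55% of all genes, and the NF-κB site GGGNNNNNCC was in 4 of 11 against 53.5%. A match of letters is not a bound site, and the absence of one covers only these 300 bases.

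**Figure D1:**
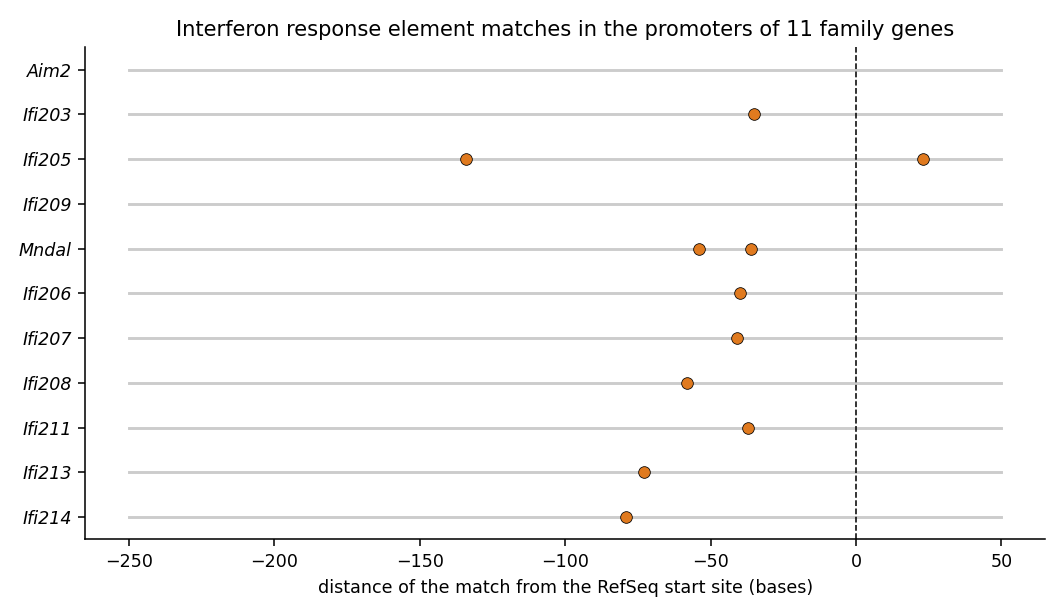
Position of matches to the ISRE core in the RefSeq promoters of 11 family genes, with each grey line spanning 250 bases before to 50 bases after the start site at 0 and each point 1 match, and with matches from both annotated starts of Mndal drawn on 1 line. Matches in 9 genes lie between 134 bases before and 23 bases after the start, and Aim2 and Ifi209 have none.

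The libraries held 48295939 to 88514341 reads on the listed genes, so that the member with the fewest reads, Ifi205 without stimulus at 24 h, still had 308 to 616. Values are scaled CPM, reads of a gene relative to the library's scaled size, taken back from the deposited log2 CPM. Reads over scaled size were 0.756 to 0.788 without stimulus, 1.24 to 1.32 with it at 6 h and 0.970 to 0.997 at 24 h, so the scaling moved with the stimulus. Scaling each library to its own total instead moved the median log2 fold change of all genes with the stimulus from -0.13 to -0.86 at 6 h, where 2440 genes were called higher and 2629 lower against 1562 and 5563, and from 0.01 to -0.33 at 24 h, where 1867 were called higher and 2389 lower against 1435 and 3281. Of 8 monocyte markers, 8 were above 10 CPM in every condition, and none of 7 T and NK cell markers was listed. Of 6 B cell markers, 3 were listed, with sums of 45.5 to 181 CPM at 6 h and 7.71 to 24.4 at 24 h. Monocyte markers summed to 22241 to 30095 CPM without and 8038 to 11440 CPM with the stimulus, although Ly6c2 went from between 345 and 503 to between 2199.7 and 2505 CPM at 6 h and Fcgr1 from between 28.0 and 35.9 to between 620.3 and 759.5. Dendritic cell markers, 6 of 6 listed, summed to 68.6 to 90.7 CPM without and 375 to 483 with the stimulus at 6 h, and to 214 to 359 and 528 to 634 at 24 h. With the stimulus that sum was mostly Bst2, also an interferon-inducible gene, at 350.1 to 453 CPM at 6 h. At that time Flt3 went from between 19.5 and 29.7 to between 2.59 and 5.06 CPM. Cd209a went from between 18.9 and 25.2 to between 0.122 and 0.324. Zbtb46 went the other way, from between 2.41 and 4.50 to between 8.58 and 14.5 CPM. So did Xcr1, from between 0.774 and 1.31 to between 3.96 and 8.48, while Siglech overlapped. The part of these markers in the results was not tested. Neutrophil markers summed to 642 to 1135 CPM without stimulus at 24 h and to 86.9 to 356 in the other conditions. Bulk RNA cannot tell a change in the share of a cell type from a change per cell.

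Nfam1, the deleted gene, was at 432 and 408 CPM in libraries labelled NFAM1+/+ without stimulus at 6 h, and at 299 and 321 in those labelled NFAM1-/-, and 133 and 129 against 135 and 127 with the stimulus. At 24 h it read 463 and 495 against 441 and 391 without stimulus, and 271 and 252 against 201 and 223 with it. Its counts cover the whole gene, including exons outside the deletion, and over the 4 conditions they were lower by 0.24 ± 0.04 (SE) on the log2 scale in NFAM1-/- (adjusted p = 0.00820, limma). With the stimulus at 6 h the groups overlapped. At 24 h they stood apart by title in both conditions, with NFAM1-/- lower, as did 23.5% and 23.2% of all genes. By the tag they overlapped, at 495 and 391 CPM for wild type against 441 and 463 without stimulus, and at 252 and 223 against 201 and 271 with it. Which label is right was not tested.

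The members were read at levels that differed by gene before any stimulus. Levels are compared between genes as CPM per kilobase of annotated exon, as means ± SD over the 4 libraries of a condition. The exon length joins all annotated transcripts of a gene, 6706 bases for Ifi203 against 3501 to 4177 for the other members. This places Ifi203 lower than its CPM does. With the stimulus at 6 h Ifi203 had a mean of 1665 CPM, against 1401 for Ifi205 and 1226 for Mndal. Without stimulus at 6 h Ifi204 was highest at 29.0 ± 2.21, followed by Ifi209 at 21.5 ± 2.41, Aim2 at 19.2 ± 1.32, Mndal at 12.8 ± 1.66, Ifi203 at 12.6 ± 1.66 and Ifi205 at 6.90 ± 1.53. Libraries of Ifi209 and Aim2 overlapped, as did those of Mndal and Ifi203, so the order within these pairs is not set. With the stimulus at 6 h Ifi204, at 682 ± 66.9, and Ifi209, at 669.97 ± 42.5, stood above all others and overlapped each other. Mndal at 338 ± 14.9 and Ifi205 at 335 ± 54.9 overlapped in turn, Ifi203 followed at 248 ± 7.67, and Aim2, the inflammasome sensor, was lowest at 81.6 ± 5.91.

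The same scale at 24 h gave Ifi204 as highest again, at 38.7 ± 7.17 without and 228 ± 12.3 with the stimulus. Ifi209 overlapped it in both, at 28.4 ± 5.43 and 187 ± 25.1. Ifi205 held the last place without stimulus, at 1.48 ± 0.343 CPM per kilobase, and the third with it, at 139 ± 14.5, where it overlapped Mndal at 126 ± 15.1. Aim2 again had the lowest stimulated level, at 45.2 ± 7.504. Summed over the 6 members, scaled CPM was 407 ± 35.1 without and 9383 ± 703 with the stimulus at 6 h, and 502 ± 74.7 and 3153 ± 350 at 24 h, with no overlap between stimulated and unstimulated libraries at either time.

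**Figure D2:**
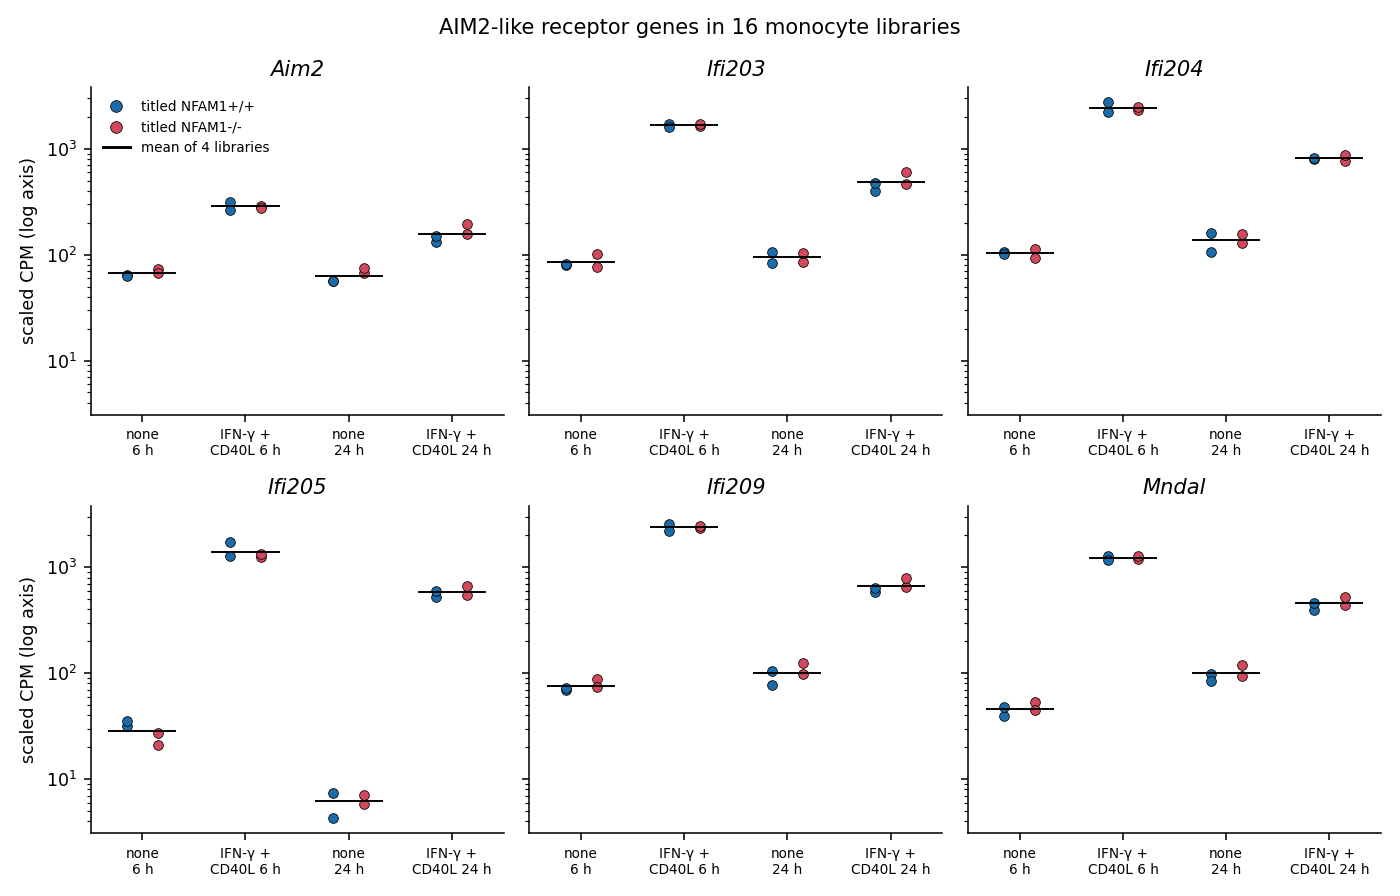
Scaled CPM of the 6 members on a log axis in each of the 16 libraries, by stimulus and time, with points coloured by the genotype of the title and black lines at the mean of 4 libraries. Stimulated libraries lie above unstimulated ones for each gene at both times, and Ifi205 falls to 4.27 to 7.43 CPM without stimulus at 24 h.

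IFN-γ plus CD40L raised 6 of 6 members at 6 h, by 4.26 times for Aim2 to 49.1 times for Ifi205. A call needed a 2-fold difference together with a Benjamini-Hochberg adjusted p under 0.05 in a limma model of all 16 libraries, by which 19.1% of the 12782 genes tested were called higher with the stimulus at 6 h. The median log2 fold change was 4.64 over the members and -0.13 over all genes tested. The size of these effects depends on scaling and other settings. Under these and with libraries left out, the log2 fold change ranged from 1.36 to 2.26 for Aim2 and from 4.89 to 5.79 for Ifi205. The lowest values for Ifi203, Ifi204, Ifi209 and Mndal were 3.46, 3.73, 4.14 and 3.99. No member's libraries overlapped between the conditions, which held in the higher direction for 32.5% of genes tested.

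Aim2, the DNA sensor of the inflammasome, read 64.2 and 63.2 CPM in the NFAM1+/+ and 73.4 and 67.6 in the NFAM1-/- libraries without stimulus at 6 h, against 312 and 263, and 290.1 and 278, with it. The stimulated libraries thus stood well above the others in both genotypes, and the log2 fold change was 2.09 ± 0.08 (SE, adjusted p = 6.51e-12, limma), the smallest of the 6.

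Ifi203, a HIN-200 gene, read 80.5 and 81.4 CPM and 101 and 76.2 without stimulus, in the same order, against 1710.2 and 1598, and 1651 and 1699, with it, a log2 fold change of 4.30 ± 0.11 (adjusted p = 1.48e-13, limma). Ifi204, the mouse gene most often set beside human IFI16, read 105 and 102 and 113 and 93.5 CPM against 2748 and 2206, and 2297 and 2466, a log2 fold change of 4.55 ± 0.12 (adjusted p = 1.48e-13, limma). In both genes the 4 stimulated libraries lay far above the unstimulated ones, and their spread within a condition was small beside that gap.

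Ifi209 read 69.8 and 72.8, and 88.9 and 73.8 CPM without stimulus against 2537 and 2188, and 2332 and 2449, with it, a log2 fold change of 4.96 ± 0.11 (adjusted p = 2.54e-14, limma). Mndal, a relative of human MNDA, read 39.2 and 47.6, and 53.7 and 44.9 against 1267 and 1168, and 1193 and 1277, a log2 fold change of 4.73 ± 0.10 (adjusted p = 2e-14, limma). For both genes each stimulated library was far above each unstimulated one, and the stimulated libraries of the 2 genotypes overlapped.

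Ifi205, described in macrophages and fat as a regulator of inflammasome and differentiation genes, read 31.5 and 35.7, and 27.2 and 20.8 CPM without stimulus against 1739.9 and 1282, and 1244 and 1336, with it. Its log2 fold change of 5.62 ± 0.16 (adjusted p = 3.11e-13, limma) was the highest of the members, and 1 NFAM1+/+ library stood above the other 3 stimulated ones.

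The 7 relatives were also called higher at 6 h, against 19.1% of genes tested. Ifi208 and Ifi214 reached 1 CPM in 2 or more libraries, the limit for testing, only with the stimulus. Their calls therefore carry no weight in that count. Ifi206 went from 1.57 to 2.40 CPM without stimulus to 599 to 681 with it, a log2 fold change of 8.27 ± 0.20, and Ifi213 from 2.65 to 6.10 to 762 to 916, one of 7.66 ± 0.20. Ifi203-ps, Ifi214, Ifi211 and Ifi207 had log2 fold changes of 7.41 ± 0.29, 6.82 ± 0.39, 4.59 ± 0.11 and 3.46 ± 0.07. The values of Ifi203-ps and Ifi214 rest on only 24 to 82 and 18 to 42 reads in the unstimulated libraries. Under other settings and with libraries left out they ranged from 5.77 to 7.79 and from 4.71 to 7.03, so their size is uncertain. Ifi208 had as few as 2 reads in an unstimulated library, so no fold is given, and rose to 5.40 to 6.79 CPM.

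At 24 h the stimulus effect was smaller for 5 members and larger for Ifi205, and 6 of 6 were still called higher against 14.6% of all genes tested. The median log2 fold change was 2.47 over the members and 0.01 over all genes. No member's libraries overlapped between the conditions, against 35.4% of genes in that direction.

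Aim2 read 56.0 and 56.9 CPM in the NFAM1+/+ and 66.7 and 74.4 in the NFAM1-/- libraries without stimulus at 24 h, and 132 and 150.1, and 156 and 195, with it, a log2 fold change of 1.31 ± 0.08 (adjusted p = 1.41e-09, limma). Scaled to own totals it was 0.98, under the fold of 2, and the other 5 members stayed above it. The 4 stimulated libraries still lay above all unstimulated ones, by a narrower margin than at 6 h.

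Ifi203 read 106 and 82.5, and 84.7 and 103 CPM without stimulus against 394 and 474, and 467 and 599, with it, and its log2 fold change was 2.36 ± 0.11 (adjusted p = 1.38e-10, limma). Ifi204 read 161 and 106, and 128 and 156 against 791 and 817, and 767 and 869, with a log2 fold change of 2.58 ± 0.12 (adjusted p = 9.61e-11, limma). The unstimulated libraries of Ifi204 spread more than at 6 h (SD 25.5 against 7.88 CPM), and for both genes they stayed below the stimulated ones.

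Ifi209 read 105 and 77.0, and 97.5 and 124 CPM against 578 and 638, and 647 and 788, a log2 fold change of 2.73 ± 0.11 (adjusted p = 2.09e-11, limma). Mndal read 99.4 and 84.3, and 94.0 and 120.4 CPM against 396 and 460.2, and 439 and 528, a log2 fold change of 2.20 ± 0.10 (adjusted p = 9.82e-11, limma). Stimulated and unstimulated libraries stayed apart in both genes. The highest value in each condition was from a library titled NFAM1-/- whose tag names wild type.

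Ifi205 read 7.43 and 4.27, and 5.88 and 7.10 CPM without stimulus at 24 h against 526 and 599, and 543 and 659, with it. The log2 fold change of 6.59 ± 0.16 (adjusted p = 1.15e-13, limma), or 96.1 times, placed it at rank 114 of the 12782 genes. It was the one member whose unstimulated libraries were in single digits.

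**Figure D3:**
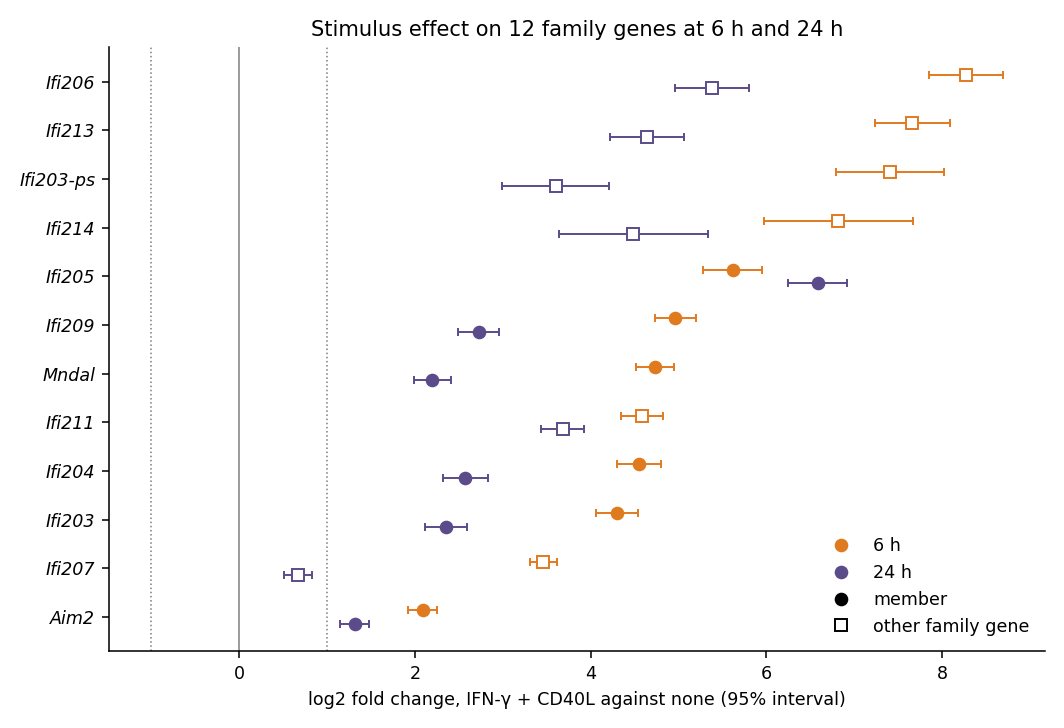
Log2 fold change with IFN-γ plus CD40L at 6 h (orange) and 24 h (purple) for 12 family genes, members as filled circles and other family genes as open squares, with 95% intervals and dotted lines at a fold of 2. Effects at 24 h lie to the left of those at 6 h for each gene but Ifi205, and Ifi207 at 0.67 is below the fold of 2 at 24 h.

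The change of the stimulus effect between the times was itself tested as an interaction, by which 13.3% of genes were called higher and 18.2% lower, 31.5% in all, and 67.2% passed on adjusted p alone. The effect was called lower at 24 h for 4 of 6 members, Mndal by -2.53 ± 0.14, Ifi209 by -2.24 ± 0.15, Ifi204 by -1.98 ± 0.17 and Ifi203 by -1.95 ± 0.16 on the log2 scale (adjusted p = 4.15e-09 to 1.79e-07, limma). Aim2, at -0.78 ± 0.11 (adjusted p = 2.17e-05, limma), passed the test but not the fold of 2. Ifi205 alone among the 13 listed family genes had a positive value, 0.97 ± 0.22 (adjusted p = 0.00144, limma), also under that fold, which reached 1.36 with own-total scaling and 1.21 without the 4 libraries whose labels disagree.

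The interaction was made up differently in Ifi205 than in the rest. Between 6 h and 24 h with the stimulus all 6 members had lower values, without overlap of libraries, which held in that direction for 33% of genes, and 5 were called lower against 17.2% of genes tested. The log2 changes were -1.85 ± 0.11 for Ifi209, -1.80 ± 0.11 for Ifi203, -1.58 ± 0.12 for Ifi204, -1.43 ± 0.10 for Mndal, -1.26 ± 0.16 for Ifi205 and, under the fold of 2, -0.86 ± 0.08 for Aim2 (adjusted p from 1.78e-09 to 4.4e-06, limma). Own-total scaling, which moved the median of all genes in this comparison from 0.04 to 0.41, left the values between -1.48 and -0.49, with Ifi205 at -0.89 then under the fold.

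Without stimulus, Ifi205 was called lower at 24 h than at 6 h, by -2.23 ± 0.16 (adjusted p = 2.89e-08, limma), and Mndal was called higher, by 1.10 ± 0.10 (adjusted p = 4.29e-07, limma), against 7.76% and 13.2% of all genes tested. Mndal's value was 0.95, under the fold of 2, without the 4 libraries whose labels disagree. Ifi204 at 0.40 ± 0.12 and Ifi209 at 0.39 ± 0.11 passed the test under that fold, and Ifi203 at 0.15 ± 0.11 and Aim2 at -0.09 ± 0.08 did not pass it. The larger effect on Ifi205 at 24 h went with a lower unstimulated level, not with a higher stimulated one. The summed markers of other cells also moved between the unstimulated libraries of the 2 times without overlap. From 6 h to 24 h the neutrophil sum went from between 108 and 259 to between 642 and 1135 CPM, the dendritic cell sum from between 68.6 and 90.7 to between 214 and 359, and the B cell sum from between 45.5 and 121 to between 17.4 and 24.4. The B cell sum was mostly Igkc at 6 h, which went from between 40.7 and 116 to between 5.85 and 11.4 CPM. Cd79b went the other way, from between 3.44 and 3.90 to between 5.96 and 16.4. Cd79a overlapped, at 0.809 to 1.22 and 0.582 to 1.12 CPM. The part of these cells in these differences was not tested. The libraries of the 2 times were separate sets, so time and handling cannot be told apart.

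Of the 7 relatives, Ifi206 and Ifi213 rose without stimulus from 6 h to 24 h, by 1.84 ± 0.20 and 1.92 ± 0.20 on the log2 scale, as did Ifi203-ps by 1.31 ± 0.29 and Ifi208. The value of Ifi203-ps ranged from 0.54 to 1.68 under other settings and with libraries left out. Ifi211, which shares most of its windows with other family genes, had a change of -0.50 ± 0.11, under the fold of 2. With the stimulus, 7 of 7 were called lower at 24 h, against 17.2% of genes tested. Under other settings and with libraries left out, Ifi206 ranged from -1.22 to -0.50 and Ifi213 from -1.28 to -0.56. Ifi211 ranged from -1.58 to -0.84, and part of each of these ranges was under the fold of 2. Ifi207 kept little of its stimulus effect, at 0.67 ± 0.07 at 24 h (adjusted p = 1.22e-06, limma), under the fold of 2.

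Comparisons of NFAM1-/- with NFAM1+/+ libraries address whether the deletion changes the monocyte response, and no member was called in any of them. Called genes over the whole table were 0.0861% without stimulus and 0% with it at 6 h, and 0.289% and 0.579% at 24 h. The 0 at 6 h is by limma with adjustment, and 1862 genes had an unadjusted p under 0.05 there.

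Without stimulus at 6 h the members' log2 fold changes ran from -0.50 ± 0.22 for Ifi205 (95% interval -0.97 to -0.02, adjusted p = 0.47, limma) to 0.19 ± 0.14 for Mndal. Both NFAM1-/- libraries of Ifi205 were below both NFAM1+/+ ones, which was so for 20.3% of all genes, and those of Aim2 and Ifi209 were above, as for 21.8%. With the stimulus the values ran from -0.21 ± 0.22 for Ifi205 to 0.02 ± 0.15 for Ifi209, and the libraries of the 2 genotypes overlapped for 6 of 6 members, while they did not for 42.4% of all genes.

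At 24 h the values by title were above 0 for 6 of 6 members in both conditions, from 0.00273 for Ifi203 to 0.32 ± 0.11 for Aim2 without stimulus, and from 0.02 ± 0.17 for Ifi204 to 0.31 ± 0.11 for Aim2 with it. Aim2's adjusted p was 0.252 and 0.169 (limma), and its NFAM1-/- libraries did not overlap the NFAM1+/+ ones in either condition, as was so in that direction for 21.9% and 24.9% of genes. Grouped by the genotype tag instead, the same libraries gave -0.09 and -0.25 for Aim2, and values below 0 for 6 of 6 members with the stimulus. The sign at 24 h therefore depends on which label is used.

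Over the 4 conditions the mean difference was 0.19 ± 0.05 for Aim2 (95% interval 0.07 to 0.31, adjusted p = 0.0706, limma), 0.18 ± 0.08 for Ifi209, 0.15 ± 0.07 for Mndal, 0.11 ± 0.08 for Ifi203, 0.02 ± 0.08 for Ifi204 and -0.10 ± 0.11 for Ifi205, while 0.156% of genes tested were called. None of these intervals reached a fold of 2 in either direction. The stimulus effect itself did not differ by genotype beyond the error for any member, with differences from -0.16 to 0.28 at 6 h and from -0.11 to 0.29 at 24 h, and 0% and 0.274% of all genes were called. Within each genotype, 6 of 6 members were called higher with the stimulus, against 19.2% of genes in NFAM1+/+ and 18.2% in NFAM1-/- at 6 h and 13.9% and 14.7% at 24 h.

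**Figure D4:**
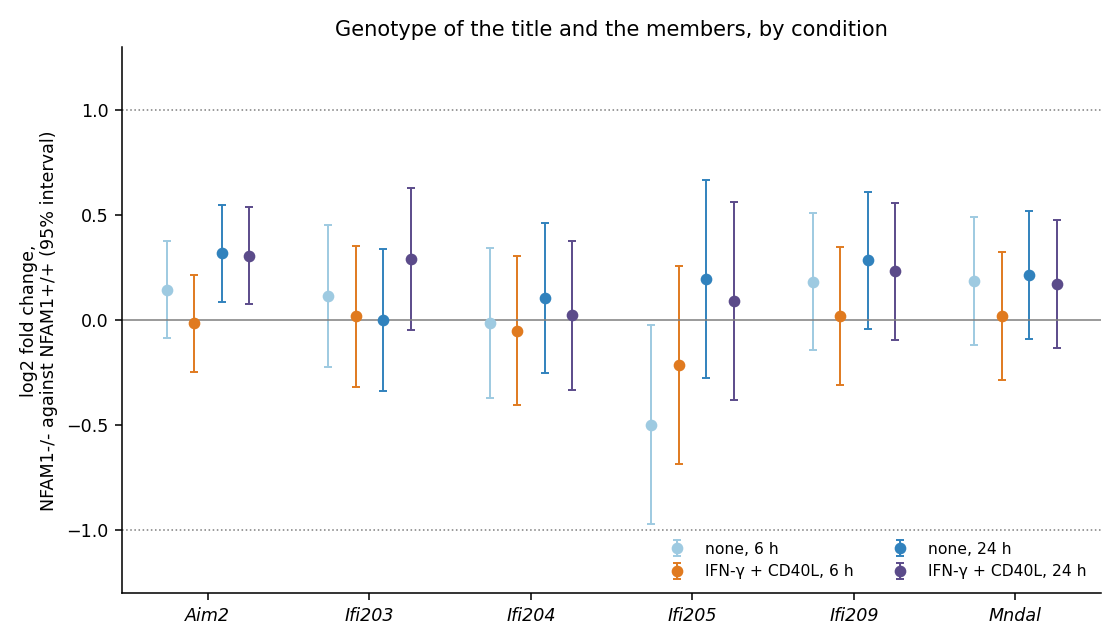
Log2 fold change of NFAM1-/- against NFAM1+/+ libraries, by the genotype of the title, for the 6 members in the 4 conditions, with 95% intervals and dotted lines at a fold of 2. All 24 intervals lie within a fold of 2, and values run from -0.50 to 0.32.

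Genes with the pattern closest to each member over the 16 libraries were found by the root-mean-square difference of log2 CPM, each gene centred on its own mean. Aim2 was closest to Tmem131, Azi2 and Arfgef1, at 0.13 to 0.14, and to no other member, the nearest of which was Ifi203 at 0.89. This distance also counts the size of the changes, and Aim2 had the smallest stimulus effects of the members. Its Pearson correlation was 0.991 with Ifi203 and 0.990 with Tmem131, and 0.946 to 0.989 with the other members. Ifi204 was closest to Daxx, Znfx1 and Slfn8 at 0.15 to 0.16, and Ifi209 to Parp14 at 0.18 and Ifi204 at 0.20. Ifi203 was closest to Zufsp and Il12rb2 at 0.15 and 0.19, and Mndal to Sp110, Tpst1 and Samhd1 at 0.18 to 0.22. Ifi205 stood apart, with Cd69, an early activation marker, at 0.61, Acod1, which makes itaconate, at 0.63, and no other member nearer than 1.49. The points share 16 libraries in 4 conditions, so these distances describe the conditions more than single libraries.

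Of 18 inflammasome genes, chosen as a list with earlier results of these data known, 9 were called higher and 2 lower at 6 h and 5 and 1 at 24 h, against 19.1% of all genes higher and 20.6% lower at 6 h and 14.6% and 18.7% at 24 h. Its median log2 fold changes were 1.02 and 0.50. Casp4, the caspase that senses cytosolic LPS, went from 45.1 ± 6.21 to 607 ± 26.8 CPM (SD, n = 4) at 6 h, a log2 fold change of 3.76 ± 0.07, and Il18 from 12.1 ± 2.80 to 99.8 ± 4.52, one of 3.07 ± 0.15. Casp1, which AIM2 activates through ASC, rose by 2.82 ± 0.06 at 6 h and 2.39 ± 0.06 at 24 h. Pycard, which encodes ASC, rose by 1.16 ± 0.08 at 6 h and stood at 0.92 ± 0.08, under the fold of 2, at 24 h. Il1b was lower with the stimulus at 6 h, by -1.25 ± 0.27.

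Among 23 of 25 listed genes of cytosolic DNA sensing and DNA clearance, 10 were called higher and 4 lower at 6 h and 8 and 3 at 24 h, with medians of -0.32 and 0.31. Over all genes, 19.1% were higher and 20.6% lower at 6 h and 14.6% and 18.7% at 24 h. Zbp1, a sensor of Z-form nucleic acid, had a log2 fold change of 7.28 ± 0.14 and 5.24 ± 0.14 at the 2 times, and Irf7, a regulator of interferon genes, 6.05 ± 0.16 and 4.51 ± 0.16. Mb21d1, which encodes the DNA sensor cGAS, rose by 2.47 ± 0.07 and 1.45 ± 0.07, and Tmem173, which encodes STING, by 2.71 ± 0.08 and 2.42 ± 0.08. Samhd1, a dNTP hydrolase, rose by 4.56 ± 0.05 and 2.37 ± 0.05.

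Of 15 interferon signalling genes, 9 were called higher and 1 lower at 6 h and 9 and 2 at 24 h, with medians of 3.25 and 2.13. Of all genes tested, 19.1% and 20.6% were called higher and lower at 6 h and 14.6% and 18.7% at 24 h. The feedback inhibitors Socs1 and Usp18 rose by 9.43 ± 0.23 and 7.75 ± 0.15 at 6 h and by 6.28 ± 0.23 and 5.004 ± 0.15 at 24 h. Irf1, a factor that acts on ISRE elements, rose by 6.50 ± 0.06 at 6 h and by 5.35 ± 0.06 at 24 h. Ifngr1, the ligand-binding chain of the IFN-γ receptor, fell by 2.38 and 1.84 on the log2 scale.

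Genes that flank the cluster were low. Fcer1a and Cadm3 beside Aim2 were not called with the stimulus at either time, at 0.20 ± 0.76 and 0.55 ± 0.15 at 6 h. The pseudogene Gm18445 inside the cluster and Olfr433 beside Ifi205 were called higher at 6 h, by 2.21 ± 0.38 and 2.00 ± 0.37, and at 24 h, by 2.20 ± 0.38 and 3.52 ± 0.37, at means of no more than 3.73 CPM in any condition. Olfr433 had a larger stimulus effect at 24 h than at 6 h, by 1.52 ± 0.52 (adjusted p = 0.0196, limma), which was called.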

How the data were processed

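RNA of 16 libraries of mouse monocytes was sequenced by the authors from poly(A) RNA without strand information as paired reads of 101 bases. As deposited, the values are log2 CPM per gene, which the authors made with STAR, Rsubread and edgeR after FastQC, with 0.5 reads added before the logarithm. Tool versions are not given in the sources used here, and the submitters' notes name GRCm39 (mm39). Whole reads could be taken back from the deposited values for 100.0% of values (tolerance 0.01), so depth is known.

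From these values, 12782 of 13085 genes were kept, those that reached 1 CPM in 2 or more libraries. They were fitted with limma 3.58.1 in R 4.3.3, with a prior variance that follows mean expression, as 8 groups of 2 libraries with 8 residual degrees of freedom. Adjustment was by Benjamini-Hochberg over all genes tested, and the limits of fold and adjusted p are those of the study's methods. The step was tested on simulated data. Replicate pairs differed by more than counting noise (chi-square per gene of 19.0 to 69.8), so no library was counted as a copy of another.

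Genes named are the 6 members, the other family symbols, Nfam1, and from each list the genes with the highest absolute stimulus effect at 6 h among those called and its defining genes. For likeness, the 3 nearest genes per member were taken. Some items that these rules select are not reported here. The members and lists were chosen with earlier results of these data known. Alternatives covered scaling, filter, offset, variance model, weights from recovered reads, libraries in the fit, the genotype label, the fold limit and each library left out. Annotation was GENCODE vM21 and RefSeq promoters of GRCm38.p6. The study's methods also name monocytes given IFN-γ alone, but none of the 16 libraries carries that label. The effects of IFN-γ and of CD40L therefore cannot be told apart here.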

Additional observations from a re-analysis of the deposited data

Results flagged for a closer look

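The change of the stimulus effect from 6 h to 24 h was itself tested in the model of all 16 libraries (limma, Benjamini-Hochberg adjusted). There it passed on adjusted p alone in all 13 listed family genes, as it did in 67.2% of genes tested. With the fold of 2 added, 10 of 13 were called, against 31.5% of genes. Ifi208 and Ifi214, counted here, reached 1 CPM in 2 or more libraries only with the stimulus. Among the members it was -2.53 on the log2 scale for Mndal, -2.24 for Ifi209, -1.98 for Ifi204, -1.95 for Ifi203 and -0.78 for Aim2, with Ifi205 at 0.97. Among the relatives it was -3.80 for Ifi203-ps, -3.02 for Ifi213, -2.88 for Ifi206, -2.79 for Ifi207, -2.33 for Ifi214 and -0.90 for Ifi211. The value of -4.58 for Ifi208 rests on 2 to 37 reads in the unstimulated libraries at 6 h. Those of Ifi214 and Ifi203-ps rest on 18 to 42 and 24 to 82 reads there. Under other settings and with libraries left out, Ifi211 ranged from -1.06 to -0.32. The 2 times were separate sets of libraries, and with own-total scaling the median of all genes for this difference was 0.44 in place of 0.04.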

How the results depend on the processing

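Under 12 other settings and with each of the 16 libraries left out in turn, 6 of 6 members stayed higher with the stimulus at 6 h and 24 h. Of the members' stimulus and time values under these alternatives, 638 kept direction and call, 16 gained a call, 5 lost one and 1 changed sign. For the genotype, 502 kept both and 50 changed sign. The number of members with a larger stimulus effect at 24 h went from 0 to 1, Ifi205, with no minimum fold, with own-total scaling (1.36), with quantile normalization (1.68) and without the 4 libraries whose labels disagree (1.21). The number higher at 24 h without stimulus went from 1 to 3 with no minimum fold and to 0 without those 4 libraries, where Ifi203 was at -0.012. The number lower at 24 h with the stimulus went from 5 to 3 with quantile normalization. The causes were not tested.

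Genotype values changed sign as follows. Ifi204 without stimulus at 6 h was 0.00294 with own-total scaling and 0.00174 with quantile normalization, which gave 0.011 for Aim2 with the stimulus at 6 h. Centring on library medians gave -0.017 for Ifi203, -0.016 for Ifi209 and -0.016 for Mndal there. With the genotype tag at 24 h, Aim2 was -0.091 and Mndal -0.059 without stimulus. With it, Aim2 was -0.25, Ifi203 -0.31, Ifi204 -0.11, Ifi205 -0.23, Ifi209 -0.21 and Mndal -0.24. Over the 4 conditions the tag gave -0.052 for Aim2, -0.035 for Ifi203, -0.0049 for Ifi204 and -0.024 for Mndal. Without the 4 libraries, Ifi203 was -0.0196, Ifi204 -0.091, Ifi205 -0.14 and Mndal -0.068 with the stimulus at 24 h. All genes called by genotype at 24 h were 37 without and 74 with the stimulus by title, 2 and 3 by tag, and 4 and 14 without the 4 libraries.

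With 1 library left out, the lone sample of a group is assumed to vary like the others. The number of members with a larger effect at 24 h ranged from 0 to 1, as Ifi205 ranged from 0.77 to 1.17 and passed the fold of 2 without library 1, 4, 26, 44, 46, 55 or 56. Genotype values without stimulus at 6 h ranged from -0.088 to 0.32 for Ifi203 and from -0.15 to 0.12 for Ifi204. With the stimulus at 6 h they ranged from -0.14 to 0.11 for Aim2, -0.0301 to 0.068 for Ifi203, -0.21 to 0.11 for Ifi204, -0.43 to 0.00784 for Ifi205, -0.086 to 0.13 for Ifi209 and -0.038 to 0.079 for Mndal. Without stimulus at 24 h they ranged from -0.18 to 0.18 for Ifi203, -0.19 to 0.41 for Ifi204 and -0.20 to 0.60 for Ifi205. With it they ranged from -0.067 to 0.11 for Ifi204 and -0.049 to 0.23 for Ifi205, and over the 4 conditions from -0.058 to 0.092 for Ifi204. Over the 4 conditions the other members kept their sign by title, with Aim2 at 0.15 to 0.23 and Ifi205 at -0.20 to -0.0047. No paired analysis was made because no label names the donor mouse, and libraries of different groups may share donors. The 2 libraries per group limit which small genotype differences could be detected.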
